A study of Mus musculus with 2 samples.

Results

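The leukocyte integrin subunits measured on these arrays were 9 genes, namely Itgam, Itgax, Itgal, Itgae, Itga4, Itga6, Itgb1, Itgb2 and Itgb7. They were taken by name, as every probe set that the platform annotation pairs with exactly 1 of these symbols, which gave 17 probe sets. These are 9 of the 12393 genes that the annotation names in this way. An integrin is a receptor made of 1 α and 1 β chain that spans the cell membrane. It ties the cytoskeleton to ligands on other cells or in the extracellular matrix, and leukocytes use it to stop on the vessel wall, enter tissue, form immune synapses and take up coated particles. The β2 chain (Itgb2, CD18) pairs with αL (Itgal, CD11a), αM (Itgam, CD11b) and αX (Itgax, CD11c). The β7 chain (Itgb7) pairs with α4 (Itga4) and αE (Itgae, CD103), while the β1 chain (Itgb1, CD29) pairs with α4, α6 (Itga6) and many others. The symbols were read with Entrez Gene numbers 16409 (Itgam), 16411 (Itgax), 16408 (Itgal), 16407 (Itgae), 16401 (Itga4), 16403 (Itga6), 16412 (Itgb1), 16414 (Itgb2) and 16421 (Itgb7), and all 9 had the same symbol in RefSeq.

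Splenocytes came from male mice of the strain DBA/1, aged between 6 and 8 weeks. The GPI-immunized group received 300 μg of recombinant human glucose-6-phosphate isomerase fused to glutathione S-transferase (GPI-GST), an antigen that causes arthritis in this strain. The control group received 100 μg of GST alone. Both antigens were given in complete Freund's adjuvant, so that adjuvant and GST were common to both groups, and spleens were taken on day 10. Each group had 3 spleens, and no source used here says whether their RNA was pooled. Each group was read on 1 array, so that no difference between mice could be measured, the comparison has no test and no p-value.

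Each probe set gave 1 signal, a brightness on a linear scale without a unit. Signals of different probe sets were not compared as amounts of RNA. They were ranked to pick the brightest probe set of a gene, and summed over lists, where the brightest genes weigh most. The ratio is the GPI-immunized signal over the control signal, without further scaling. A gene was read from its brightest probe set. It had sufficient signal where at least 1 of its signals was 50.2 or more, the 50th percentile over both arrays, as in 6961 genes. The median signal was 51.8 in GPI-immunized spleens and 48.65 in control spleens. Probe sets for Bacillus genes, which have no mouse target, reached at most 7.2 in GPI-immunized spleens and 14.1 in control spleens. As a technical yardstick, log2 ratios of probe sets of the same gene differed with an SD of 0.20 at mean signals above 217, 0.27 between 53.5 and 217, and 0.66 between 7.29 and 53.5. Both probe sets are read on the same 2 arrays, so this spread holds neither variation between animals nor differences between the hybridizations that shift both alike.

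Of the 9 integrin genes, 8 had sufficient signal, each of them on both arrays. Among these, 1 (Itgam) had a ratio of 2 or more and 0 had a ratio of 0.5 or less. Over all 6961 genes, 2.23% had a ratio of 2 or more and 0.445% a ratio of 0.5 or less. Of the 8, 5 had ratios above 1 and 3 below 1. Among all 6961 genes, 4006 had ratios above 1 and 2950 below 1. The counts by side of 1 given below for other lists stand against the same background. Their median log2 ratio was 0.37, and that of all genes with sufficient signal was 0.06. The β2 family was divided in the same comparison, with Itgam at one end of the range of ratios and Itgax at the other.

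**Figure D1:**
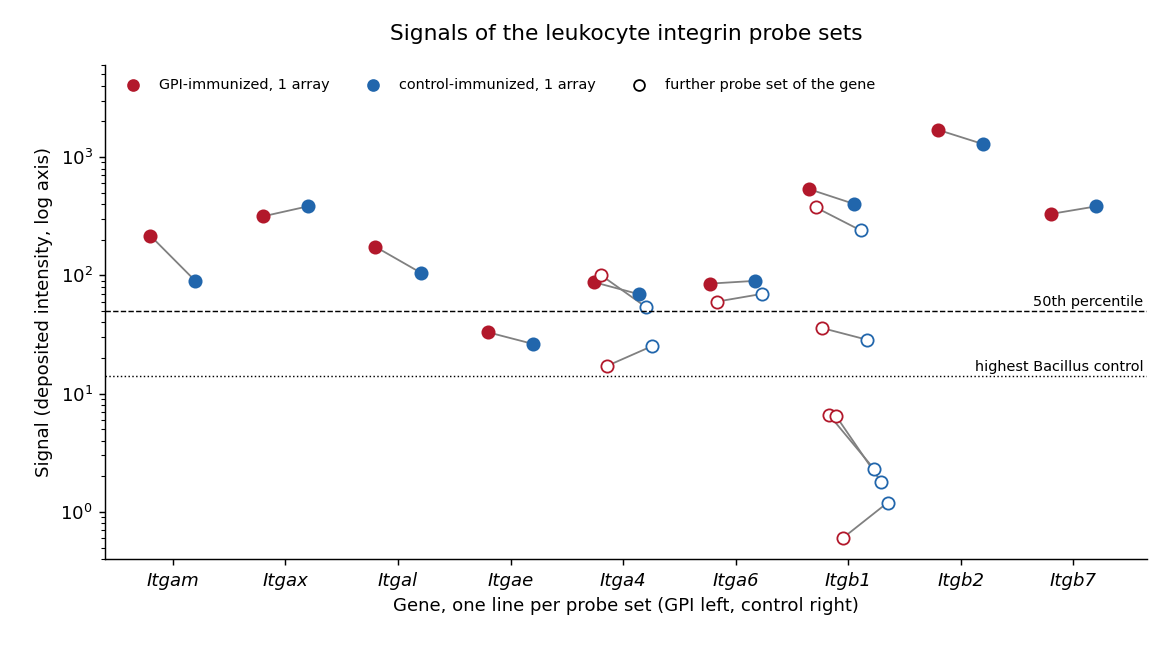
Signal (vertical log axis, deposited intensity) of the 17 integrin probe sets, with GPI-immunized spleens (red) left of control spleens (blue), a line joining the signals of 1 probe set, filled points for the probe set that represents the gene and open points for its further probe sets. The line of Itgam is the steepest among the filled points (216.5 and 89.7), and those of Itgax, Itgb7 and Itga6 run the other way. Of the Itgb1 probe sets, 3 lie under the highest Bacillus control signal of 14.1 (dotted line).

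The αM chain, CD11b, is carried by neutrophils, monocytes and macrophages. With β2 it forms Mac-1, also called complement receptor 3, which binds complement-coated particles, fibrinogen and ICAM-1. The study used CD11b to separate splenocytes. Itgam had a signal of 216.5 in GPI-immunized spleens and 89.7 in control spleens, a ratio of 2.41. Its log2 ratio of 1.27 was 4.64 times the SD between probe sets of 1 gene at this brightness. Among the 6961 genes, 75 had a higher ratio than Itgam, or 1.08%. A single probe set reads Itgam here, so no second probe set could be set beside it. In RNA from whole splenocytes, a larger share of cells that carry a transcript and more transcript per cell cannot be told apart, and this holds for every ratio given here.

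The αX chain, CD11c, is the usual marker of dendritic cells in the mouse and is also found on some macrophages and other cells. It too pairs with β2. The study used it for cell separation as well. Itgax had a signal of 315.1 in GPI-immunized spleens and 383.3 in control spleens, a ratio of 0.822, and was thus on the other side of 1 from Itgam. The log2 ratio of -0.28 was 1.43 times the SD between probe sets at this brightness, and 85.2% of genes had a higher ratio. Itgam and Itgax are direct neighbours among the protein-coding genes of mouse chromosome 7. Their log2 ratios lay 1.55 apart, a factor of 2.94, which was 4.21 times the SD that the yardstick gives for a difference of 2 ratios.

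The 250 bases before the starts of Itgam and Itgax are shown from RefSeq (build GRCm38.p6), together with those of Itgb2l, a relative of Itgb2 described further on. Capitals mark GAGGAA, the core that the myeloid transcription factor PU.1 binds, read on either strand (TTCCTC on the reverse). Itgam lies at chr7:128062390-128062639 (plus strand), Itgax at chr7:128129300-128129549 (plus strand) and Itgb2l at chr16:96443615-96443864 (minus strand).
Itgam: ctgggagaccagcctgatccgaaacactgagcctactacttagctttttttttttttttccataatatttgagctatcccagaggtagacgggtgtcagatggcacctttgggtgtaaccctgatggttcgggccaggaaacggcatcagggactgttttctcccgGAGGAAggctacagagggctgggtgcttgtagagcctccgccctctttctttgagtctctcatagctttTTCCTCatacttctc
Itgax: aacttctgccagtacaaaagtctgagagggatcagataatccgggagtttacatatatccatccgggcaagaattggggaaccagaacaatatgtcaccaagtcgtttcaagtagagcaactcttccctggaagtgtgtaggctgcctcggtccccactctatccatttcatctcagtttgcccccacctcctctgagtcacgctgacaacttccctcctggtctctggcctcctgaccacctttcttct
Itgb2l: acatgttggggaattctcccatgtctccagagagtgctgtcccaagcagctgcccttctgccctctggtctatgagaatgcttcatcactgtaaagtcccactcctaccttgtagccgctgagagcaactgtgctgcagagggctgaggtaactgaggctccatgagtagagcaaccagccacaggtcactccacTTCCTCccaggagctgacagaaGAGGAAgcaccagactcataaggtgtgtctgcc

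The letters GAGGAA occurred 2 times before Itgam, 2 times before Itgb2l and 0 times before Itgax. Itgb2l is not among the 9 genes and was added by name. Besides Itgam, it is the integrin gene with sufficient signal and a ratio of at least 2. No window was read for the other integrin genes outside the 9, so these counts cannot relate the letters to the ratios. Of 32851 such windows of the table, 23.3% held them on at least 1 strand. Windows were found for 5 of the 9 integrin genes (Itgam, Itgax, Itga4, Itgb1 and Itgb7), and Itgb1 held 1 match while Itga4 and Itgb7 held 0. The RUNX core TGTGGT was present before Itga4 alone among these 5 genes and Itgb2l (14% of all windows), and the C/EBP motif TTGCNNAA before none of the 6 (9.56% of all windows), both read on either strand. None of the matches overlapped another. The share of windows with 2 matches was not counted. A match describes the letters of this window and is not a measured binding site. The part of these letters in the ratios was not tested. Itgal, Itgae, Itga6 and Itgb2 were not in the table.

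The αL chain, CD11a, is present on nearly all leukocytes. Joined to β2 it is LFA-1, the receptor for ICAM-1 and ICAM-2 that holds T cells to antigen-presenting cells and neutrophils to endothelium. Itgal had a signal of 174.2 in GPI-immunized spleens and 105.5 in control spleens, a ratio of 1.65 that stayed under the 2-fold limit. The log2 ratio of 0.72 was 2.64 times the SD between probe sets at this brightness, and 4.50% of genes had a higher ratio. The shared β chain, Itgb2, had a signal of 1695.3 in GPI-immunized spleens and 1284.4 in control spleens, a ratio of 1.32. Its log2 ratio of 0.40 was 2.02 times the corresponding SD, and 14.5% of genes had a higher ratio. The ratio of the β2 chain thus lay between those of the α partners read here, below Itgam and Itgal and above Itgax. On the log2 scale Itgam lay 0.87 above Itgb2, or 2.36 times the SD for a difference, and Itgal lay 0.32 above it, which was within that SD (0.87 times). The log2 ratio of Itgax minus that of Itgb2 was -0.68.

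**Figure D2:**
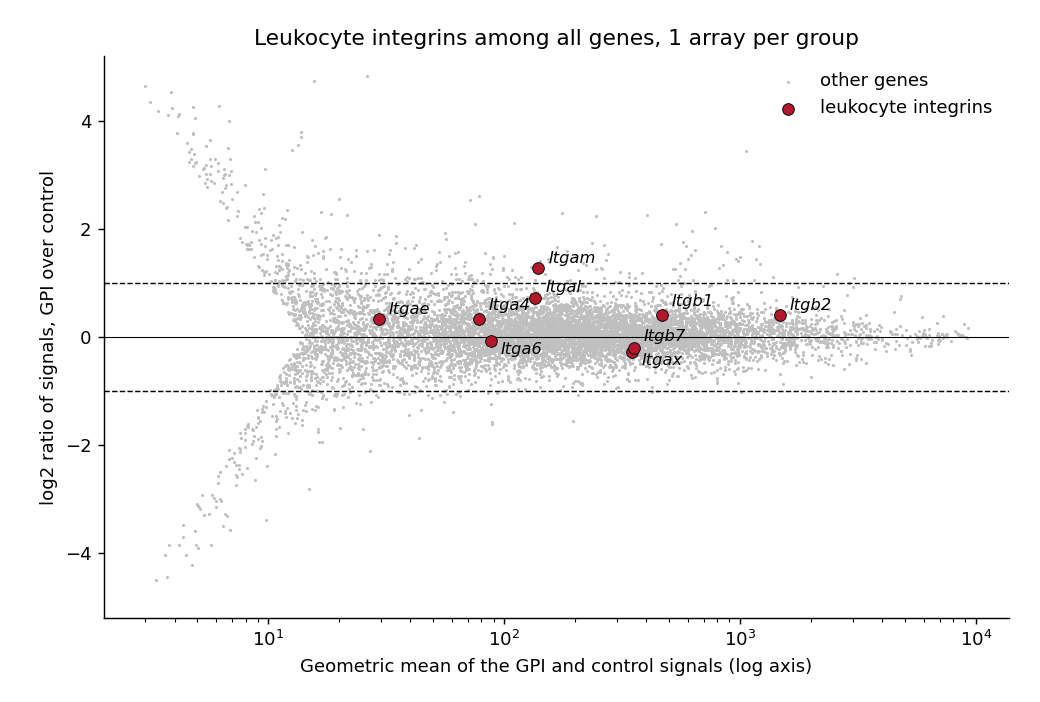
Log2 ratio of the GPI-immunized over the control signal (vertical axis) against the geometric mean of the signals (horizontal log axis), 1 point per gene read from its brightest probe set, for genes that reached 14.1 on either array. Itgam, at 1.27, is the integrin above the 2-fold line (dashed), and the other 8 integrin genes lie between -0.28 and 0.72, inside the cloud of other genes.

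The α4 chain forms VLA-4 with β1, which binds VCAM-1 and fibronectin, and the gut-homing receptor for MAdCAM-1 with β7. Itga4 was read by 3 probe sets that did not agree in size or side. The representing one had signals of 87.6 in GPI-immunized spleens and 69.3 in control spleens, a ratio of 1.26. A second one of similar brightness had 100.9 in GPI-immunized spleens and 54.2 in control spleens, a ratio of 1.86. The dimmest had 17.2 in GPI-immunized spleens and 25.3 in control spleens, a ratio of 0.680, with neither signal reaching the 50th percentile. Over the 3, the mean log2 ratio corresponded to a ratio of 1.17.

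The α6 chain makes a laminin receptor with β1. Itga6 had signals of 85.1 in GPI-immunized spleens and 89.8 in control spleens, a ratio of 0.948. Its other probe set, with 59.9 in GPI-immunized spleens and 69.6 in control spleens, gave 0.861. Both log2 ratios were smaller than the SD between probe sets, at 0.28 and 0.79 times its size. With each array divided by its hybridization controls, transcripts added to the labelled sample, the ratio of Itga6 was 1.08, so that its side of 1 depended on the scaling.

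The β1 chain is common to the largest group of integrins, among them the receptors for fibronectin, collagen and laminin. Itgb1 was read by 6 probe sets. The representing one had a signal of 536.2 in GPI-immunized spleens and 402 in control spleens, a ratio of 1.33, and the next had 375.7 in GPI-immunized spleens and 239.9 in control spleens, a ratio of 1.57. These are the only Itgb1 probe sets with sufficient signal, and their log2 ratios were 2.10 and 3.27 times the SD between probe sets. Another had 35.8 in GPI-immunized spleens and 28.5 in control spleens (1.26). The remaining 3 stayed at or under 6.6 on both arrays, at the level of the Bacillus controls, and no ratio is given for them.

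The β7 chain marks lymphocytes that home to or stay in the gut, and αE, its partner on intraepithelial T cells and on a subset of dendritic cells, binds E-cadherin. Itgb7 had a signal of 330.4 in GPI-immunized spleens and 382.7 in control spleens, a ratio of 0.863, and its log2 ratio of -0.21 was 1.07 times the SD between probe sets. Itgae had 33.0 in GPI-immunized spleens and 26.3 in control spleens, a ratio of 1.25. It is the one integrin chain of the 9 without sufficient signal, and its log2 ratio of 0.33 was 0.50 times that SD at this low brightness. The chains that α4 can join lay on either side of 1, β1 at 1.33 and β7 at 0.863. Their log2 ratios were 0.63 apart, 1.70 times the SD for a difference.

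In order of ratio, the genes were Itgam, Itgal, Itgb1, Itgb2, Itga4, Itgae, Itga6, Itgb7 and Itgax. Itgam stood 0.55 above Itgal on the log2 scale. This was 1.48 times the SD for a difference. From Itgb1 to Itgae the log2 ratios ran from 0.42 to 0.33, a span of 0.09 or 0.24 times that SD. The SD for a difference was taken at sufficient signal, which Itgae lacks. At the brightness of Itgae the SD between probe sets was larger (0.66). The order from Itgb1 to Itgae is thus not settled. Nor is that of Itga6, Itgb7 and Itgax, which ran from -0.08 to -0.28, a span of 0.56 times the SD for a difference. Itgal lay 0.32 above Itgb2, or 0.87 times that SD, with Itgb1 between them. A further probe set of Itga4 gave a ratio of 1.86, above the 1.65 of Itgal, so the place of Itgal is not settled either. As this SD holds no variation between animals, a gap larger than it does not settle an order between mice.

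Of the other integrin genes, 13 were measured and 4 had sufficient signal. Itgb2l, also called pactolus, is a β2-like protein of mouse neutrophils. It had a signal of 313.6 in GPI-immunized spleens and 133.5 in control spleens, a ratio of 2.35. It was the one integrin gene besides Itgam at 2-fold or more among those with sufficient signal. Itga2b, the platelet integrin chain αIIb, had 96.2 in GPI-immunized spleens and 60.6 in control spleens (1.59). The 4 platelet and megakaryocyte markers with sufficient signal on both arrays, Itga2b included, had a median log2 ratio of 0.40. Another marker, Gp5, reached it only in GPI-immunized spleens, with 51.7 there and 28.7 in control spleens, and did not reach it on either array after division by the median, quantile normalization or loess centring, while with division by the hybridization controls its ratio was 2.05. The summed signal of the 5 genes was 564.4 in GPI-immunized spleens and 417 in control spleens. Their part in the ratio of Itga2b was not tested. Itgav, the αV chain of vitronectin receptors, had 229.5 in GPI-immunized spleens and 206.6 in control spleens (1.11). Itgb5, its β partner, had 113.4 in GPI-immunized spleens and 112.4 in control spleens (1.01), whereas another of its probe sets gave 1.67.

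Integrins work only once they are switched on from inside the cell, where talin (Tln1) and kindlin-3 (Fermt3) bind the β tail after the small GTPase Rap1 becomes active. Of 29 measured genes of activation and anchoring, 27 had sufficient signal and 0 reached 2-fold either way (median log2 ratio 0.02). Fermt3 had a ratio of 0.984 and Tln1 of 1.21. The ratios furthest from 1 were those of zyxin (Zyx, 1.79) and paxillin (Pxn, 1.56), which sit in focal adhesions, and of Rapgef3 (0.682), an exchange factor for Rap1, which reached sufficient signal only in control spleens (34.5 in GPI-immunized spleens and 50.6 in control spleens). Zyxin had a signal of 558.1 in GPI-immunized spleens and 312.3 in control spleens. With division by the hybridization controls zyxin reached a ratio of 2.03 and the median of the list was 0.23, against -0.07 with division by the array median.

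Bound integrins signal through Src family kinases and, in myeloid cells, through adaptors with an activation motif that recruit Syk. Of 17 measured signalling genes, 16 had sufficient signal and 0 reached 2-fold either way (median log2 ratio 0.15). The adaptor Fcer1g had a ratio of 1.60, the exchange factor Vav3 of 1.57 and the myeloid Src family kinase Fgr of 1.50. Fcer1g had a signal of 877.3 in GPI-immunized spleens and 547.4 in control spleens. Syk itself had a ratio of 0.832.

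Among integrin ligands, 22 were measured and 6 had sufficient signal, and 0 reached 2-fold either way (median log2 ratio -0.01). Icam1, a ligand of αLβ2 and αMβ2, had 325.8 in GPI-immunized spleens and 311.5 in control spleens, a ratio of 1.05. Vcam1, the ligand of α4β1, had 953.7 in GPI-immunized spleens and 931.9 in control spleens, a ratio of 1.02. Fibronectin (Fn1) had 294.8 in GPI-immunized spleens and 154.2 in control spleens, a ratio of 1.91 that was the furthest from 1. With division by the hybridization controls it was 2.18 and the median of the list 0.18, against -0.15 with division by the array median. It was followed by Icam2 at 0.675 and by Cd47, a membrane protein that associates with integrins, at 0.882. Cdh1 (E-cadherin, bound by αEβ7) and Madcam1 (bound by α4β7) had no sufficient signal, with 22.3 and 17.4 in GPI-immunized spleens and 38.6 and 16 in control spleens.

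**Figure D3:**
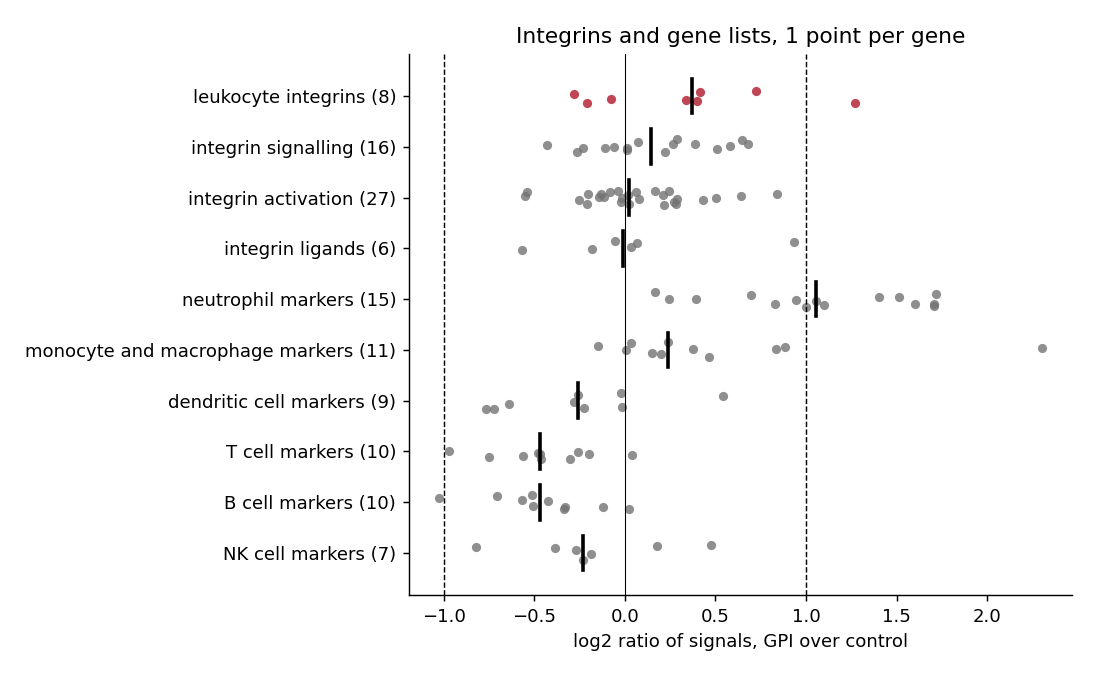
Genes with sufficient signal in 10 lists, 1 point per gene, placed by log2 ratio (horizontal axis, GPI-immunized over control), with the number of genes in brackets and the median as a black bar, and 2-fold ratios as dashed lines. The integrins (red) span -0.28 to 1.27, while the neutrophil markers lie to the right of 0 (median 1.06) and the T and B cell markers mostly to its left (both medians -0.47).

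Cell type markers differed in the same comparison, and their values are given beside the integrins that these cells carry. All 15 measured neutrophil markers had ratios above 1, with a median log2 ratio of 1.06, and 8 of them reached 2-fold. Under the other scalings between 7 and 11 of them did so, and all 15 stayed above 1. Their summed signal was 53038 in GPI-immunized spleens and 35709 in control spleens. The ratios furthest from 1 were those of the collagenase Mmp8 (3.28), the gelatinase Mmp9 (3.26) and the chemokine receptor Cxcr2 (3.26). Cxcr2 reached sufficient signal only in GPI-immunized spleens, with 76.6 there and 23.5 in control spleens, and without it 7 of 14 markers reached 2-fold (median 1.03). The ratio of Itgam lay within this list, under 6 of its genes and above 9, and Itgb2l, itself a neutrophil gene, was close to Itgam. None of these markers was listed at 0 or lay at the level of the Bacillus controls.

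Of 15 measured monocyte and macrophage markers, 11 had sufficient signal and 1 was at least 2-fold higher, namely Cd14 (4.93), the co-receptor for lipopolysaccharide. The Fc receptor Fcgr1 (1.85) and the chemokine receptor Ccr2 (1.78) followed, where Fcgr1 reached sufficient signal only in GPI-immunized spleens (74.6 in GPI-immunized spleens and 40.4 in control spleens). With the deposited signals 10 of the 11 ratios were above 1, the lowest was that of Adgre1 (0.901), and the median log2 ratio was 0.24. With division by the hybridization controls 3 of the markers reached 2-fold, with Fcgr1 at 2.10 and Ccr2 at 2.03, and the median was 0.42. With division by the array median, quantile normalization or loess centring 1 marker reached 2-fold and 3 of the 11 ratios were below 1. The median was then 0.15 to 0.17. The summed deposited signal of the 11 genes was 16653 in GPI-immunized spleens and 12840 in control spleens. Marco and Vsig4 were not above the Bacillus level. Itgam lay above 10 of these 11 genes. The part of neutrophils or monocytes in the ratios of Itgam, Itgal and Itgb2 was not tested.

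Of 9 dendritic cell markers with sufficient signal, 8 had ratios below 1, and 0 reached 2-fold either way (median log2 ratio -0.26). The lowest were Bst2 (0.587), the lectin Cd209a (0.606) and the chemokine receptor Ccr7 (0.641), and the summed signal was 2302 in GPI-immunized spleens and 2883 in control spleens. The log2 ratio of Itgax, -0.28, was close to that median, with 6 of the markers above Itgax and 3 below it. Among the 6 is Tlr3, whose ratio of 0.822 equals that of Itgax at this rounding. Tlr3 reached sufficient signal only in control spleens (46.3 in GPI-immunized spleens and 56.3 in control spleens). Without Tlr3, 7 of 8 markers had ratios below 1, with a median of -0.24. No measured dendritic cell marker was at the Bacillus level. With each array divided by its hybridization controls the median of this list was -0.07 and 6 of the 9 ratios were below 1. The part of dendritic cells in the ratio of Itgax was not tested.

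Lymphocyte markers had mostly lower signals in GPI-immunized spleens. Of 10 T cell markers with sufficient signal 9 had ratios below 1 (median log2 ratio -0.47), among them Cd3e (0.509), Cd5 (0.677) and Cd4, which the study also used for cell separation, with 88.1 in GPI-immunized spleens and 148.3 in control spleens (0.594). Of 10 B cell markers 9 had ratios below 1 and 1, the IgE receptor Fcer2a (0.491), was at least 2-fold lower, followed by Cd72 (0.612) and the kinase Blk (0.674), with a median of -0.47. The ratio of Fcer2a was 0.559 with division by the hybridization controls, and that of Cd3e was 0.478 with division by the array median, each on the other side of the 2-fold limit. Summed signals were 1725 in GPI-immunized spleens and 2323 in control spleens for T cell markers, and 20881 in GPI-immunized spleens and 25027 in control spleens for B cell markers. Of 7 NK cell markers 5 had ratios below 1 (median -0.23). Among the 5, Klrk1 reached sufficient signal only in control spleens (43.6 in GPI-immunized spleens and 56.9 in control spleens). Without Klrk1, 4 of 6 NK cell markers had ratios below 1 (median -0.21). Klrd1 (0.565) and Nkg7 (1.39) were the furthest from 1.

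The integrins that lymphocytes carry did not share 1 direction with these lists. Itgb7, at 0.863, lay above 8 of 10 T cell and 8 of 10 B cell markers. Itgal and Itga4, the second read from its brightest probe set and both present on lymphocytes and on myeloid cells alike, had ratios above those of all 10 T cell and all 10 B cell markers. No measured T or B cell marker was listed at 0 or lay at the Bacillus level, and the part of lymphocytes in these ratios was not tested.

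**Figure D4:**
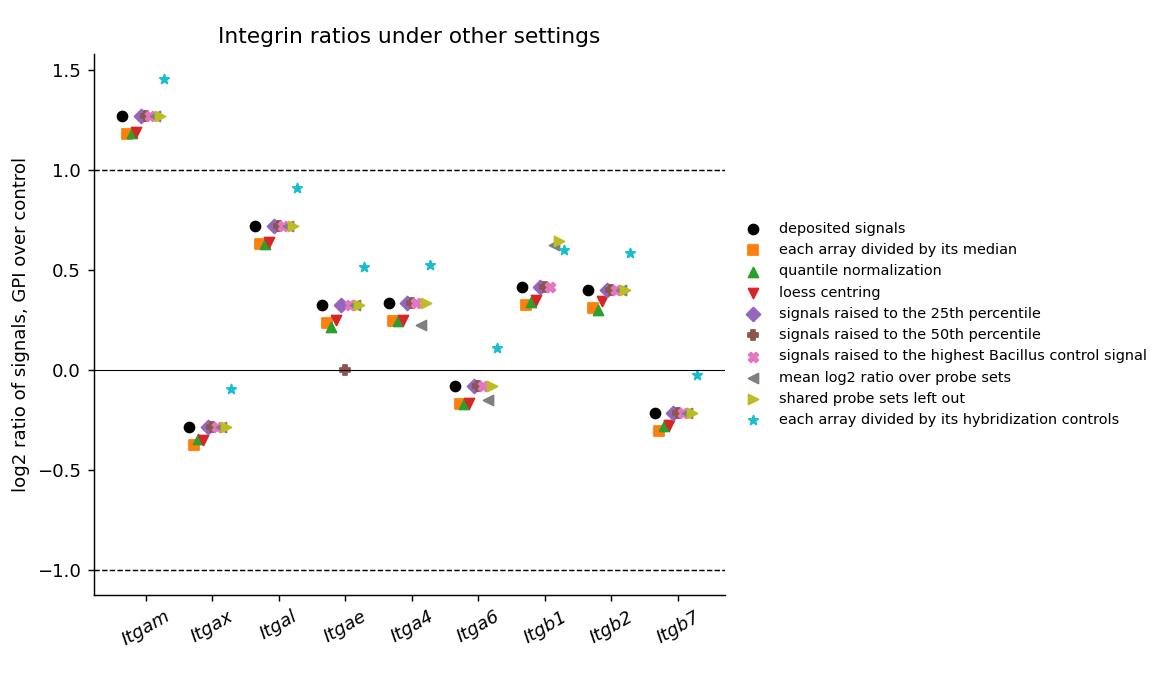
Log2 ratio of the GPI-immunized over the control signal (vertical axis) of each integrin gene with the deposited signals (black circles) and under 9 other settings (coloured symbols), with 2-fold ratios as dashed lines. Itgam stayed above the 2-fold line in all of them, and Itga6 was above 0 in 1 of them.

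Across 9 other scalings, floors and choices of probe sets, the ratio of Itgam ran from 2.27 to 2.75 and that of Itgal from 1.55 to 1.88, always under 2-fold. Itgb2 ran from 1.23 to 1.50 and Itgb1 from 1.25 to 1.57. Itgax (0.772 to 0.936) and Itgb7 (0.811 to 0.983) stayed below 1.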

How the data were processed

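RNA of DBA/1 splenocytes was read on 2 Affymetrix mouse GeneChips, 1 per group. The authors deposited 1 intensity per probe set and array on a linear scale. According to the methods gene expression software was used, but no source used here gives its name, the summarization, the scaling between arrays, the detection calls or the genome build. The labels and the methods differ on how RNA was labelled (labelled cDNA or biotinylated cRNA). Both columns were assigned to groups by their sample labels.

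Of 22626 probe sets besides 64 controls, 20380 had exactly 1 gene symbol (12393 genes). Signals of 0 (3 in all) were set to 0.1 on the log scale. Each gene was represented by its probe set of highest mean log2 signal. The limits for counting were ratios of 2 and 0.5. The yardstick was the root mean square difference in log2 ratio between the 2 brightest probe sets of a gene, divided by the square root of 2 (2538 pairs at sufficient signal, SD 0.26).

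The genes and lists were chosen with earlier results of these data known. Named were all 9 integrin genes, other integrins with sufficient signal, the markers of separated cells and up to 3 genes per list furthest from a ratio of 1. Fermt3, Tln1, Syk, Icam1, Vcam1, Cdh1 and Madcam1 were added for their roles. Lists can share genes (Cd8a is a T cell and a dendritic cell marker, Vcam1 a ligand and a macrophage marker).

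Alternatives were division by the array median, quantile normalization, loess centring (span 0.3), floors at the 25th and 50th percentile and at the highest Bacillus signal, averaging probe sets, leaving out shared ones, no filter, a filter at the 75th percentile and a 3-fold limit. Division by the 18 hybridization control probe sets (bioB, bioC, bioD and cre), and counting list genes with sufficient signal on both arrays, were chosen after seeing the data. The procedure was tested on simulated data. With 1 array per group, the number of arrays limits the precision. Python 3.11.15, numpy 2.4.6, pandas 2.3.3, statsmodels 0.14.6 and matplotlib 3.10.9 were used.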

Additional observations from a re-analysis of the deposited data

How the results depend on the processing

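With 1 array per group no replicate could be left out, and the error from mice and hybridizations that the ratios hold could not be estimated. The count of integrin genes at least 2-fold higher (1) and at least 2-fold lower (0) was the same under 10 of the 12 alternatives. It was 0 and 0 under a 75th percentile filter, which leaves 4 of the genes and removes Itgam, and likewise at 3-fold. The median log2 ratio of the integrins (0.37) was 0.094 under that filter and ran from 0.27 to 0.56 under the other alternatives. Itgae, whose signals lie under the 50th percentile, had a ratio of 1 with signals raised to that level. Of all genes, those higher and those lower numbered 155 and 31 (83.3% higher), 111 and 47 with either division by the median or quantile normalization (70.3%), 115 and 43 with loess centring (72.8%), 210 and 72 averaged over probe sets, 1266 and 1105 without a filter, 111 and 11 with the 50th percentile floor, 70 and 5 under a 75th percentile filter, and 35 and 3 with a 3-fold limit. Division by the hybridization controls shifted the log2 ratio of every gene by 0.19 and gave 253 and 10 (96.2%). Relative to that shift the order of the integrins is that of the deposited signals.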

Other observations

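Leukocytes roll on selectins before integrins hold them, and 11 genes of selectins, their ligands and the enzymes that make these ligands were measured. Of these, 7 had sufficient signal, and 0 reached 2-fold either way (median log2 ratio 0.01). Cd44, a hyaluronan receptor that can also carry selectin ligands, had a signal of 857.2 in GPI-immunized spleens and 486.1 in control spleens, a ratio of 1.76. The sialyltransferase St3gal4 had 272.1 in GPI-immunized spleens and 184.6 in control spleens (1.47), and the glycosyltransferase Gcnt1 had 41.5 in GPI-immunized spleens and 57.6 in control spleens (0.720), reaching sufficient signal only in control spleens. With division by the hybridization controls Cd44 had a ratio of 2.01 and the median of the list was 0.20. Selplg, the P-selectin ligand of leukocytes, had a ratio of 1.08.

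Among 7 erythroid genes with sufficient signal the median was -0.13 on the log2 scale, with ratios from Ank1 at 0.660 to Gata1 at 1.35. With division by the hybridization controls that median was 0.06.

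The hybridization control probe sets, for bacterial and phage transcripts that the manufacturer's protocol adds to the labelled sample, were bright on both arrays (69.1 to 7301.5). Of 18, 17 were lower in GPI-immunized spleens, with ratios from 0.759 to 1.16 and a geometric mean of 0.879. The median of the mouse probe sets was the higher one on that array, with 51.8 in GPI-immunized spleens and 48.65 in control spleens. No source used here says whether equal amounts were added to both arrays.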
